A study of Homo sapiens with 15 samples.

Results

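CAL51 is a human breast cancer cell line classed as triple-negative. The 24 h response described here set 3 arrays of CAL51 cultures treated for 24 h with 0.4 µM doxorubicin against 3 arrays of untreated CAL51 cultures, 6 of the 15 arrays of the series. The other 9 arrays, 3 each, were CAL51 after 48 h in 0.4 µM doxorubicin, CALDOX after 24 h in 4 µM, and untreated CALDOX, where CALDOX is the line that grew out of CAL51 under long exposure to 0.4 µM. Per the labels, every group came from independent cultures, the drug was added at about the midpoint of confluency, and CALDOX had spent several passages without drug before its treatment. Whether the untreated CALDOX cultures were drug-free is not stated, and each line is a single line, so the p-values describe the spread between cultures of that line. The genes were all those with a probe set that carries 1 gene symbol, 19775 in number. The description covers the 19418 of them outside lists of p53 targets, cell-cycle genes and histones, which held 357 measured genes and do not name every target of p53.

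Doxorubicin is an anthracycline that slips between DNA bases and traps topoisomerase II on broken DNA. Beside the p53 response, cells under stress read their supply of amino acids and lipids through several transcription programmes, those of ATF4 and SREBP among them. ATF4 is a transcription factor whose protein is made when translation initiation is slowed through the phosphorylated factor eIF2, and it raises genes for amino acid synthesis, amino acid uptake and tRNA charging. SREBP proteins are released from the endoplasmic reticulum when membrane sterol is low and raise the enzymes of cholesterol and fatty acid synthesis, while INSIG proteins hold them back. A class I MHC molecule shows peptides on the cell surface after TAP carries them into the endoplasmic reticulum. These statements are background.

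The deposited values are RMA log2 intensities, so a difference of 1 is a 2-fold change. Below, a difference is the mean of the treated minus the mean of the untreated arrays, ± its limma standard error, each group having n = 3 arrays, and a gene is said to rise or fall only where limma's adjusted p over all 19775 genes was under 0.05. Pearson correlations over all probe sets were 0.9929 to 0.9972 among the treated arrays, 0.9959 to 0.9966 among the untreated arrays and 0.9911 to 0.9941 between treated and untreated arrays. The spread of each array's values over all probe sets was 1.977, 1.937 and 2.005 in treated cultures, against 1.979, 1.958 and 1.952 in untreated cultures, so treated replicates 2 and 3 had the narrowest and the widest distribution. The 3′ minus 5′ difference of the GAPDH control probe sets lay between -0.024 and 0.026 in treated arrays and between 0.034 and 0.088 in untreated arrays, and that of ACTB between -0.201 and -0.080 in treated arrays and between -0.137 and -0.049 in untreated arrays. The part of RNA quality in the results was not tested. A fit that took each array's spread as a covariate called 3099 genes, against 1999 without it. For the group means of VIM and CD44, ± is the standard deviation over the 3 arrays. VIM, the mesenchymal filament vimentin, averaged 13.11 ± 0.02 in treated and 12.58 ± 0.13 in untreated cultures. CD44, a hyaluronan receptor, averaged 9.39 ± 0.24 in treated and 8.38 ± 0.09 in untreated cultures. The epithelial markers KRT8, KRT18 and EPCAM averaged 12.92, 14.23 and 12.07 in treated and 12.55, 14.11 and 11.88 in untreated cultures. KRT8 rose by 0.38, and KRT18 and EPCAM did not pass the test. PGR, the progesterone receptor, stood at 6.16 in treated and 6.14 in untreated cultures. ESR1, the oestrogen receptor, stood at 8.29 in treated and 8.42 in untreated cultures and ERBB2, the receptor HER2, at 9.88 in treated and 10.03 in untreated cultures, and the table has no detection calls that would say whether such levels are signal. None of 5 blood markers and 4 endothelial markers measured passed limma's test. Of 6 fibroblast markers 2 rose, ACTA2 by 0.52 and COL1A2 by 0.20, while DCN and LUM differed by -0.09 and -0.01. The part of other cells in these results was not tested. The arrays read whole cultures, so fewer cells of a kind and less RNA per cell cannot be told apart.

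Of the 19775 genes, 1141 rose (5.77%) and 858 fell (4.34%), which is 10.1% in either direction. Outside the p53, cell-cycle and histone lists, 1044 genes rose and 783 fell. Most of these changes were small: the median size among the called genes was 0.32, 1649 of them changed by less than 1.5-fold, and only 19 rose and 4 fell by 2-fold or more. Rises outnumbered falls in the deposited scaling, but repeating the quantile normalization gave 1252 higher and 1260 lower, and taking each array's spread as a covariate gave 1453 higher and 1646 lower. Fitting only the 6 arrays compared gave 600 higher and 270 lower. Falls numbered 507 without treated replicate 1 and 571 without untreated replicate 1. Of 184 of the called genes given with values here, 39 lost their call in the fit to 6 arrays. Leaving out treated replicates 1, 2 and 3 ended 17, 14 and 16 calls, and leaving out untreated replicates 1, 2 and 3 ended 22, 16 and 16 calls. A call was lost without 1 or more single arrays for 28 genes: ACAA2, AKR1C1, BMAL2, COL1A2, CYP27A1, ELOVL6, ERAP2, ETFDH, FARSB, FDPS, FZD1, GABARAPL1, HSPA13, HSPB1, LBR, MSMO1, MTHFD1, MVD, MYLIP, NFIL3, NUPR1, OAS2, PER3, S100Z, SLC38A1, SLC6A9, TAPBPL and TFPI. The median difference over all genes was -0.03. The arrays of treated and untreated cultures did not overlap for 2089 genes that were higher and 2510 that were lower, 23.3% of all genes. Calls were fewer at low signal. Among the 4944 dimmest genes 55 rose and 63 fell, against 534 and 493 among the 4944 brightest.

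**Figure D1:**
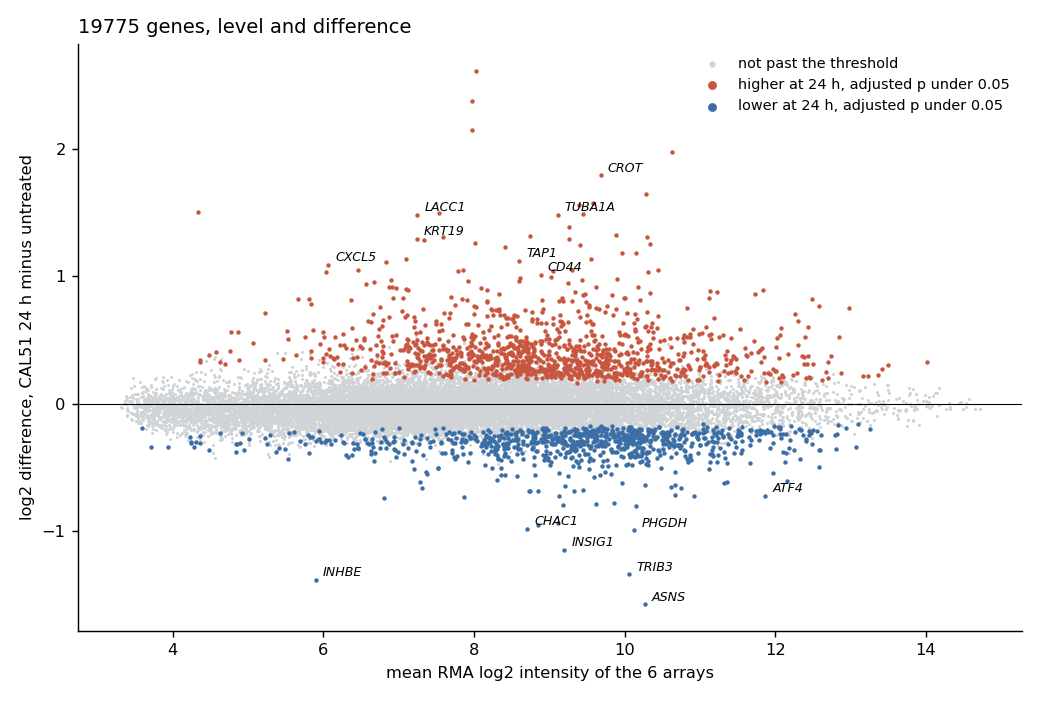
Each point is 1 of 19775 genes, with its mean RMA log2 intensity over the 6 arrays on the horizontal axis and its log2 difference (CAL51 24 h minus untreated) on the vertical axis. Coloured points passed an adjusted p under 0.05. The largest falls, ASNS, INHBE and TRIB3, lie lowest, at -1.58, -1.39 and -1.34, and CROT leads the labelled rises at 1.79.

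CROT rose most among these genes. It encodes a peroxisomal carnitine acyltransferase that hands medium-chain fatty acids on to mitochondria. Its log2 intensity was 10.57, 10.52 and 10.64 in treated arrays, against 8.69, 8.77 and 8.89 in untreated arrays. The groups lay far apart, with a difference of 1.79 ± 0.06 (adjusted p = 6.6e-11), or 3.47-fold. TUBA1A, an alpha-tubulin, read 9.73, 9.84 and 9.98 in treated arrays, against 8.37, 8.39 and 8.34 in untreated arrays, a difference of 1.48 ± 0.11 (adjusted p = 1.8e-07). Its probe set can share signal with other alpha-tubulin genes. LACC1, an enzyme of purine nucleoside metabolism best known from macrophages, read 8.06, 7.73 and 8.16 in treated arrays, against 6.50, 6.42 and 6.58 in untreated arrays, a difference of 1.48 ± 0.12 (adjusted p = 7.7e-07). None of these genes had overlapping groups, which the choice of genes required.

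The next genes by size of rise were of varied function. EPPK1 encodes epiplakin, which binds keratin filaments, and it read 10.00, 9.72 and 10.13 in treated arrays, against 8.64, 8.50 and 8.54 in untreated arrays, a difference of 1.39 ± 0.09 (adjusted p = 3.4e-08). KRT19, a simple keratin, read 7.87, 7.80 and 7.99 in treated arrays, against 6.46, 6.69 and 6.62 in untreated arrays, a difference of 1.30 ± 0.07 (adjusted p = 1.4e-08). A second KRT19 probe set, which is dimmer, differed by -0.01. Osteopontin, the secreted phosphoprotein encoded by SPP1, read 8.72, 8.53 and 8.67 in treated arrays, against 7.53, 7.17 and 7.44 in untreated arrays, a difference of 1.26 ± 0.09 (adjusted p = 1.6e-07). RASEF, a GTPase of the Rab family, differed by 1.23 ± 0.08 (adjusted p = 4.5e-08), and CYFIP2, a member of the WAVE complex that drives actin branching, by 1.18 ± 0.06 (adjusted p = 7.1e-09). TRIM5, a factor that restricts retroviruses, read 7.84, 7.38 and 7.79 in treated arrays, against 6.87, 6.25 and 6.47 in untreated arrays, a difference of 1.14 ± 0.15 (adjusted p = 9.2e-05). TAP1, the peptide transporter of class I presentation, read 9.08, 9.14 and 9.24 in treated arrays, against 7.97, 8.10 and 8.02 in untreated arrays, a difference of 1.12 ± 0.06 (adjusted p = 9.0e-09). XG, a surface glycoprotein that carries a blood group antigen, read 7.01, 7.40 and 7.74 in treated arrays, against 6.27, 6.26 and 6.30 in untreated arrays. The treated XG values were widely spread and the untreated values nearly equal, and the difference was 1.11 ± 0.14 (adjusted p = 7.4e-05). F2RL2, a protease-activated receptor for thrombin, differed by 1.05 ± 0.10 (adjusted p = 3.4e-06). The neutrophil chemokine CXCL5 read 6.88, 6.04 and 6.91 in treated arrays, against 5.81, 5.05 and 5.68 in untreated arrays. Replicate 2 was the lowest CXCL5 array in both groups, and the difference was 1.09 ± 0.22 (adjusted p = 0.0036). Its probe set is of a type that can bind related transcripts. Other CXCL5 probe sets differed by 1.11 and 0.15. The locus LOC100190986, which has no role given here, differed by 1.14 ± 0.06 (adjusted p = 6.0e-09). The probe set annotated to MIR34A, from which no level of the mature miRNA can be read, differed by 1.31 ± 0.10 (adjusted p = 3.6e-07).

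**Figure D2:**
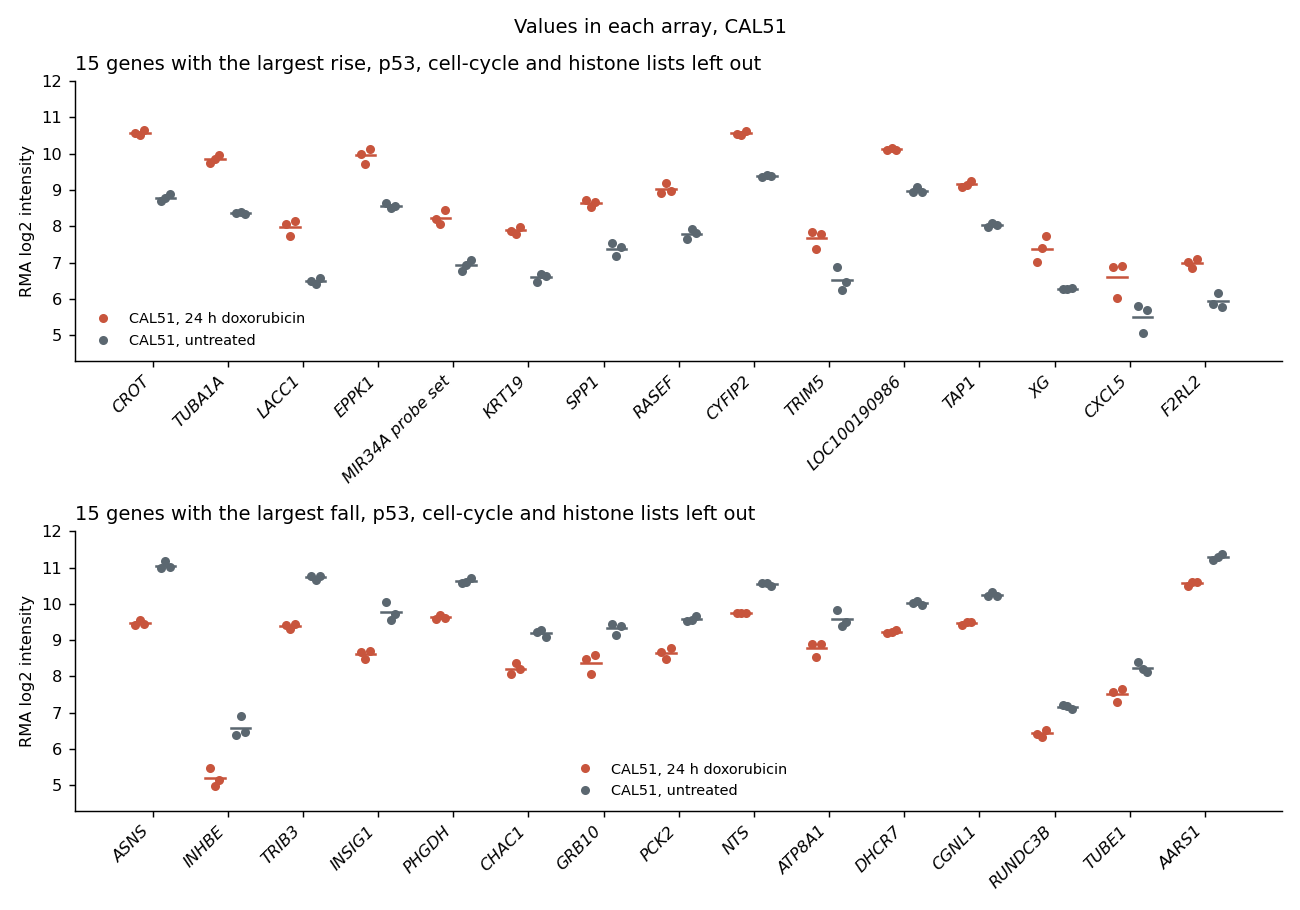
RMA log2 intensity in each CAL51 array for the 15 genes that rose most and the 15 that fell most outside the p53, cell-cycle and histone lists. Points are arrays and bars are group means, with 24 h cultures to the left of untreated cultures. All 3 treated arrays lie on 1 side of all 3 untreated arrays for each of the 30 genes, which the choice of genes required.

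The genes that fell most had several roles. Only ASNS, INHBE, TRIB3 and INSIG1 fell by 2-fold or more in this fit. Asparagine synthetase, encoded by ASNS, fell most: it read 9.42, 9.57 and 9.44 in treated arrays, against 10.97, 11.17 and 11.02 in untreated arrays, a difference of -1.58 ± 0.07 (adjusted p = 4.2e-10), or 2.98-fold lower. A second ASNS probe set lay near 4.6 in both groups and differed by -0.04. INHBE, an inhibin subunit, read 5.48, 4.98 and 5.15 in treated arrays, against 6.39, 6.90 and 6.48 in untreated arrays, a difference of -1.39 ± 0.13 (adjusted p = 2.9e-06). TRIB3, a pseudokinase that feeds back on ATF4, read 9.43, 9.31 and 9.43 in treated arrays, against 10.78, 10.65 and 10.77 in untreated arrays, a difference of -1.34 ± 0.06 (adjusted p = 1.2e-09). INSIG1, the sterol-regulated anchor of SREBP, read 8.68, 8.48 and 8.71 in treated arrays, against 10.04, 9.55 and 9.72 in untreated arrays, a difference of -1.15 ± 0.11 (adjusted p = 4.2e-06). In all of these every treated array lay below every untreated array, which the choice of genes required. PHGDH, the first enzyme of serine synthesis, differed by -0.997 ± 0.056 (adjusted p = 1.2e-08), and PCK2, the mitochondrial enzyme that makes phosphoenolpyruvate, by -0.94 ± 0.08 (adjusted p = 7.1e-07). GRB10, an adaptor of the insulin receptor, differed by -0.95 ± 0.11 (adjusted p = 3.1e-05). NTS, the precursor of the peptide neurotensin, read 9.74, 9.75 and 9.74 in treated arrays, against 10.59, 10.56 and 10.50 in untreated arrays, and its treated arrays were nearly equal. Its difference was -0.81 ± 0.08 (adjusted p = 6.2e-06). ATP8A1, a phospholipid flippase, differed by -0.79 ± 0.13 (adjusted p = 9.0e-04), and CGNL1, a protein of epithelial junctions, by -0.78 ± 0.07 (adjusted p = 2.8e-06). TUBE1, the epsilon-tubulin of centrioles, differed by -0.73 ± 0.15 (adjusted p = 0.0044). RUNDC3B differed by -0.74 ± 0.09 (adjusted p = 5.5e-05).

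ATF4 itself fell, as did many of the factors and feedback genes around it. ATF4 read 11.53, 11.46 and 11.54 in treated arrays, against 12.19, 12.19 and 12.31 in untreated arrays, a difference of -0.72 ± 0.06 (adjusted p = 4.4e-07), which is 1.65-fold lower. Of 23 factors and regulators of this programme 12 fell (52.2%) and 0 rose, against 4.34% and 5.77% of all genes. The median over all genes was -0.03, and that of these 23 was -0.27. The median was -0.133 over the mean of all probe sets and -0.181 with array weights. CHAC1, which breaks down glutathione, read 8.07, 8.36 and 8.21 in treated arrays, against 9.22, 9.29 and 9.08 in untreated arrays, a difference of -0.98 ± 0.08 (adjusted p = 7.8e-07). CEBPB and CEBPG, bZIP factors that pair with ATF4, differed by -0.66 ± 0.09 (adjusted p = 1.1e-04) and -0.65 ± 0.07 (adjusted p = 9.1e-06). EIF4EBP1, which holds back the cap-binding factor eIF4E, differed by -0.66 ± 0.06 (adjusted p = 2.1e-06), DDIT3, the factor CHOP, by -0.57 ± 0.09 (adjusted p = 7.8e-04), and the secreted protein STC2 by -0.57 ± 0.10 (adjusted p = 0.0022). JDP2, EIF2AK1 and NUPR1 fell by 0.33, 0.29 and 0.27. EIF2AK1 is 1 of the kinases that phosphorylate eIF2. The other eIF2 kinases did not pass the test: EIF2AK2 differed by -0.05, EIF2AK3 by -0.10 and EIF2AK4 by 0.23. Also short of the threshold were ATF3 (-0.05), ATF5 (-0.10), PPP1R15A (0.09), DDIT4 (0.14), FGF21 (-0.13), VLDLR (0.02), TRIB1 (0.07) and TRIB2 (0.05). ATF3, PPP1R15A and DDIT4 respond to several other stresses as well.

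The element TGATGNAAN, which ATF4 and C/EBP factors bind as a pair, was searched on both strands of the 250 bases before each RefSeq start (GRCh38.p14). Windows around the matches are shown for 3 genes of this group that fell, with the matched letters in capitals and each sequence written 5′ to 3′ on the gene's own strand. The match in ASNS reads in the direction of the gene, and those in CHAC1 and AARS1 read on the other strand.
ASNS, chr7:97872443-97872501, minus strand: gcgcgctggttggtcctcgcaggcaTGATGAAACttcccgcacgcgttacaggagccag
CHAC1, chr15:40953236-40953294, plus strand: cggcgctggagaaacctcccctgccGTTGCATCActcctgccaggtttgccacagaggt
AARS1, chr16:70289661-70289719, minus strand: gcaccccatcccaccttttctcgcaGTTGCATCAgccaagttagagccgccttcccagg
The match begins 68 bases before the start in ASNS, 210 in CHAC1 and 188 in AARS1. Of the 15382 tested genes with a promoter entry, 3.18% held the element, and so did 3.53% of the 709 called lower and 1.97% of the 912 called higher. Among listed genes with an entry, 5 of 18 ATF4 factors, 3 of 14 tRNA synthetases and 3 of 19 amino acid supply genes held it. Of those called lower with an entry, the holders were 3 of 8 ATF4 factors, 3 of 10 tRNA synthetases and 1 of 11 amino acid supply genes. ATF3 and FGF21 are among the holders and did not pass the test, and GARS1 and IARS1 are holders that fell. The promoter set used here held no entry for INHBE, YARS1 or EIF4EBP1. A match describes letters and not binding.

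Genes of amino acid supply and tRNA charging also fell. Among 24 genes of amino acid synthesis, one-carbon metabolism and amino acid uptake, 14 fell (58.3%) and 0 rose (median -0.34). Among all genes 4.34% fell and 5.77% rose. After ASNS and PHGDH the largest fall was that of SLC1A4, a transporter of neutral amino acids, which read 9.16, 9.02 and 9.12 in treated arrays, against 9.83, 9.74 and 9.77 in untreated arrays, a difference of -0.68 ± 0.06 (adjusted p = 7.8e-07). SLC7A1, the main importer of cationic amino acids, fell by 0.64, and SLC7A11, the cystine importer, by 0.36. SHMT2 and MTHFD2, enzymes of mitochondrial one-carbon metabolism, fell by 0.62 and 0.54. CBS of cysteine synthesis fell by 0.41 and PYCR1 of proline synthesis by 0.28. The remaining falls were those of SLC6A9, SLC43A1, SLC38A1, SLC38A2 and MTHFD1, at 0.42, 0.37, 0.33, 0.31 and 0.21. Of 17 cytosolic tRNA synthetases, which load amino acids onto tRNAs, 12 fell (70.6%) and 0 rose (median -0.29). AARS1, for alanine, read 10.50, 10.60 and 10.59 in treated arrays, against 11.21, 11.28 and 11.38 in untreated arrays, a difference of -0.73 ± 0.06 (adjusted p = 5.4e-07). CARS1, for cysteine, differed by -0.72 ± 0.06 (adjusted p = 7.8e-07), and YARS1, for tyrosine, by -0.62 ± 0.06 (adjusted p = 3.4e-06). A dimmer YARS1 probe set differed by 0.06. GARS1 fell by 0.61, and the smallest called fall was that of FARSB, at 0.24, which differed by 0.0438 at its brightest plain _at probe set.

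Endoplasmic reticulum chaperones and stress genes, a list that also holds ATF6, ERN1, XBP1, HERPUD1, EDEM1 and SEL1L, shifted by less. Of these 20 genes, 9 fell (45%) and 0 rose (median -0.17). SDF2L1 read 9.43, 9.32 and 9.60 in treated arrays, against 9.96, 9.90 and 9.96 in untreated arrays, a difference of -0.49 ± 0.08 (adjusted p = 6.2e-04). HYOU1 fell by 0.42, MANF by 0.42 and HSPA5, the central chaperone of that compartment, by 0.34. Of 19 heat shock genes 1 rose (5.26%) and 2 fell (10.5%), against 5.77% and 4.34% of all genes, with a median of 0.04. The difference between these lists was not tested. HSPA13 fell by 0.54, HSPA9 fell by 0.25 and HSPB1 rose by 0.27.

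Most measured genes of cholesterol synthesis fell. Of 22 enzymes and regulators 13 fell (59.1%) and 1 rose (4.55%), against 4.34% and 5.77% of all genes (median -0.33). In the fit to only the 6 arrays compared, the falls of ACAT2, FDPS, IDI1, MSMO1 and MVD and the rise of TM7SF2 lost their call. From the start of the pathway, ACAT2 differed by -0.38 ± 0.08 (adjusted p = 0.0084) and HMGCS1 by -0.49 ± 0.05 (adjusted p = 1.3e-05). HMGCS1 read 9.01, 9.10 and 9.08 in treated arrays, against 9.57, 9.57 and 9.52 in untreated arrays, with no overlap. In the mevalonate and isoprenoid steps MVD fell by 0.34, IDI1 by 0.32 and FDPS by 0.32, while MVK and PMVK differed by -0.17 and 0.02 and did not pass the test. SQLE, which oxidizes squalene, and LSS, which closes the product into the sterol ring, fell by 0.63 and 0.64. Late steps were mixed. DHCR7, the last enzyme, read 9.19, 9.24 and 9.27 in treated arrays, against 10.02, 10.06 and 9.98 in untreated arrays, a difference of -0.79 ± 0.06 (adjusted p = 4.5e-07). EBP fell by 0.42 and MSMO1 by 0.36, NSDHL, HSD17B7 and SC5D differed by -0.21, 0.20 and -0.05 without passing, and TM7SF2, a sterol reductase, rose by 0.33. The regulators SREBF1 and SREBF2 fell by 0.48 and 0.40. INSIG2 (-0.23), SCAP (-0.09) and the sterol carrier STARD4 (-0.19) did not pass. The sterol response element TCACNCCAC was in 1 of 20 cholesterol genes with a promoter entry, against 1.14% of all genes with an entry, and that gene was SREBF2. The box CCAAT, bound by NF-Y, was in 16 of these 20 genes, against 39.7% of all, 48.7% of the genes called lower and 41.0% of those called higher.

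Neighbouring lipid pathways moved in both directions. Of 21 fatty acid synthesis genes 5 fell (23.8%) and 3 rose (14.3%), against 4.34% and 5.77% of all genes. ELOVL6 and FADS2, which lengthen and desaturate fatty acids, fell by 0.68 and 0.49, with FASN, ACACA and SCD at 0.44, 0.41 and 0.35. ELOVL7 read 10.01, 10.05 and 10.01 in treated arrays, against 9.26, 9.35 and 9.24 in untreated arrays, a difference of 0.74 ± 0.05 (adjusted p = 1.9e-07), and SCD5 and FADS3 rose by 0.57 and 0.33. Of 11 genes of sterol export and clearance 4 rose (36.4%) and 0 fell. ABCA1, which exports cholesterol to apolipoproteins, read 7.19, 6.72 and 7.19 in treated arrays, against 6.32, 6.50 and 6.51 in untreated arrays, a difference of 0.59 ± 0.11 (adjusted p = 0.0024). Treated replicate 2 was the lowest of the treated ABCA1 values. MYLIP, a ubiquitin ligase, rose by 0.31, and another MYLIP probe set differed by -0.07. CYP27A1 and NPC2 rose by 0.28 and 0.26. Among 31 fatty acid oxidation genes only CROT, PHYH and CPT2 rose, the last 2 by 0.71 and 0.32, and ETFDH and ACAA2 fell by 0.39 and 0.18. These rises and falls are 9.68% and 6.45% of the list, near the 5.77% and 4.34% of all genes.

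Some regulators of transcription fell as well. Of 16 circadian clock genes 6 fell (37.5%) and 0 rose. Their median was -0.21, -0.13 over the mean of all probe sets and -0.066 with the brightest probe set of plain _at type. PER3, a repressor of the clock, read 7.19, 6.75 and 7.33 in treated arrays, against 7.86, 7.45 and 7.58 in untreated arrays, a difference of -0.54 ± 0.15 (adjusted p = 0.027). NR1D2 and DBP, which the clock drives, fell by 0.38 and 0.37, and TEF, NFIL3 and BMAL2 by 0.32, 0.29 and 0.23. Of 40 Wnt pathway genes 0 rose and 3 fell (7.5%), near the 4.34% that fell among all genes, and those were the receptors FZD2, FZD1 and FZD4, by 0.40, 0.30 and 0.27. Among 45 genes of DNA methylation and chromatin 8 fell (17.8%) and 2 rose (4.44%), against 4.34% and 5.77% of all genes. TET1, which oxidizes methylated cytosine, differed by -0.46 ± 0.09 (adjusted p = 0.0045), LBR of the nuclear envelope by -0.39 ± 0.11 (adjusted p = 0.043) and the lamin gene LMNA by 0.42 ± 0.07 (adjusted p = 7.7e-04). Of 466 ZNF zinc finger genes 30 rose (6.44%) and 12 fell (2.58%), near the 5.77% and 4.34% of all genes. ZNF195 rose by 0.70, ZNF44 by 0.52 and ZNF423 fell by 0.56, and another ZNF44 probe set differed by -0.02.

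The S100 family, small calcium-binding proteins many of which lie side by side in the genome, held many risers. Of 18 measured members 10 rose (55.6%) and 0 fell, against 5.77% and 4.34% of all genes. The median was 0.31, and 0.549 over the members above the median level. S100P read 9.03, 9.08 and 9.11 in treated arrays, against 8.11, 8.21 and 8.02 in untreated arrays, a difference of 0.96 ± 0.06 (adjusted p = 2.2e-08). S100A2 read 9.47, 9.51 and 9.62 in treated arrays, against 8.74, 8.73 and 8.70 in untreated arrays, a difference of 0.81 ± 0.06 (adjusted p = 2.1e-07). The treated arrays of both genes lay above all untreated arrays. S100A6 and S100A10 rose by 0.76 and 0.65, S100A4 by 0.60, S100A13 by 0.55 and S100A16 by 0.54. S100A3, S100A11 and S100Z rose by 0.42, 0.32 and 0.29. ANXA4 and ANXA1 were the 2 of 11 annexins (18.2%) that rose, by 0.71 and 0.33. Annexins bind membranes in the presence of calcium, some of them together with S100 proteins.

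Antigen presentation genes rose in number. Of 17 class I genes 8 rose (47.1%) and 0 fell (median 0.28), against 5.77% and 4.34% of all genes. Of 40 interferon-stimulated genes 4 rose (10%) and 1 fell (2.5%), nearer to those shares (median 0.01). The contrast between these lists was not tested. After TAP1 came the immunoproteasome subunits PSMB8, which read 7.59, 7.74 and 7.72 in treated arrays, against 6.70, 7.23 and 6.91 in untreated arrays, a difference of 0.74 ± 0.11 (adjusted p = 3.2e-04), and PSMB9, which differed by 0.70 ± 0.12 (adjusted p = 9.4e-04). HLA-C, B2M and HLA-B rose by 0.45, 0.41 and 0.31, and probe sets of HLA genes can share signal. B2M differed by -0.0352 at its brightest plain _at probe set. ERAP2, which trims peptides, and TAPBPL rose by 0.31 and 0.28. GBP1, a guanylate-binding protein, rose by 0.83, LGALS3BP by 0.49 and ISG15 by 0.48, while OAS2 fell by 0.25. Of 30 genes that sense nucleic acids or signal from interferon receptors 8 rose (26.7%) and 0 fell. SAMHD1, which breaks down deoxynucleotides, rose by 0.54, STING1, the adaptor of DNA sensing, by 0.43 and MYD88 by 0.38. APOBEC3C, a cytidine deaminase, rose by 0.68.

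The interferon-stimulated element, searched as GAAA and GAAA with any 2 letters between them on either strand, was in 3.39% of promoter entries, 4.82% of those called higher and 2.54% of those called lower. Among the class I genes 7 of 15 with an entry held it. TAP1, the gene of this group that rose most, holds 2 overlapping copies on the strand opposite to the gene, shown here in capitals on the gene's own strand and beginning 134 bases before the start.
TAP1, chr6:32853798-32853863, minus strand: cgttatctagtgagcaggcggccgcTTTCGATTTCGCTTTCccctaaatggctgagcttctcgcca
Of the other holders, B2M and ERAP2 rose, and HLA-F, PSMB10, TAP2 and TAPBP differed by 0.18, 0.25, 0.30 and 0.19 without passing the test.

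Genes of secretion and the cell surface rose in small numbers from several families. Of 31 cytokines and chemokines 5 rose (16.1%) and 0 fell, against 5.77% and 4.34% of all genes. IL18, a cytokine of the interleukin-1 family, read 8.81, 8.63 and 8.85 in treated arrays, against 8.03, 8.08 and 7.60 in untreated arrays, a difference of 0.86 ± 0.14 (adjusted p = 8.9e-04). CXCL2, which attracts neutrophils, differed by 0.73 ± 0.10 (adjusted p = 2.3e-04), IL32 by 0.52 ± 0.06 (adjusted p = 1.3e-05) and CX3CL1 by 0.38 ± 0.06 (adjusted p = 7.4e-04). Of 18 NF-kappaB genes 6 rose (33.3%) and 0 fell. TNFAIP2 rose by 0.65, NFKBIA, the inhibitor that NF-kappaB itself induces, by 0.52 and the kinase MAP3K14 by 0.49. Of 27 complement and coagulation genes 9 rose (33.3%) and 2 fell (7.41%). PROCR, the protein C receptor, read 9.87, 9.87 and 9.94 in treated arrays, against 9.27, 9.06 and 8.93 in untreated arrays, a difference of 0.80 ± 0.08 (adjusted p = 5.0e-06), THBS1 rose by 0.61, and CD55 and CD59, which shield cells from complement, rose by 0.53 and 0.40. TFPI, an inhibitor of coagulation, fell by 0.41. TIMP1 and CST3, inhibitors of matrix proteases and cathepsins, rose by 0.83 and 0.60. Of 43 collagens 7 rose (16.3%) and 1 fell (2.33%), and COL27A1 and COL18A1 led the rises at 0.80 and 0.54. CD24, a mucin-like surface protein, rose by 0.88 and LGALS3, galectin-3, by 0.75, while ULBP1, a ligand of the natural killer receptor NKG2D, fell by 0.45.

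Early growth signalling genes were among those that rose. Of 30 immediate early genes 11 rose (36.7%) and 3 fell (10%), against 5.77% and 4.34% of all genes (median 0.06). FOSL1, an AP-1 subunit, read 8.39, 8.40 and 8.36 in treated arrays, against 7.35, 7.48 and 7.16 in untreated arrays, a difference of 1.05 ± 0.07 (adjusted p = 1.6e-07). EGR3 read 7.54, 7.12 and 7.75 in treated arrays, against 6.71, 6.64 and 6.56 in untreated arrays, a difference of 0.83 ± 0.14 (adjusted p = 0.0012). FOS rose by 0.70 and FOSL2 by 0.67, while SPRY2, an inhibitor of receptor tyrosine kinase signals, fell by 0.46. The AP-1 element TGANTCA was in 7.57% of promoter entries called higher, 5.08% of those called lower and 7.06% of all. ANKRD1, a YAP target, differed by 0.91 ± 0.08 (adjusted p = 8.5e-07), and MYOF rose by 0.52 and CRIM1 by 0.47. Of 28 YAP pathway genes 9 rose (32.1%) and 1 fell (3.57%). HES1, a repressor driven by Notch, differed by 0.74 ± 0.07 (adjusted p = 3.6e-06), FGF2 by 0.65 ± 0.09 (adjusted p = 2.7e-04), PDGFA by 0.56 ± 0.10 (adjusted p = 0.0013) and the receptor AXL by 0.54 ± 0.08 (adjusted p = 5.0e-04). Of 47 growth factor and receptor genes 4 rose and 6 fell, 8.51% and 12.8% against 5.77% and 4.34% of all genes (median -0.003). Of 26 Notch pathway genes 4 rose and 1 fell, 15.4% and 3.85% (median -0.006). Of 24 mesenchymal genes 8 rose (33.3%) and 2 fell (8.33%), with a median of 0.02. S100A4, VIM and ACTA2 rose by 0.60, 0.52 and 0.52, while ZEB1, a repressor of epithelial genes, fell by 0.51. The protease inhibitor SPINT2 rose by 0.71, E-cadherin (CDH1) by 0.67 and the epithelial factor ELF3 by 0.44. Of 34 genes of epithelia and cell junctions, CDH2, CDH11 and CLDN11 among them, 3 rose and 0 fell. The rises are 8.82% of the list, against 5.77% of all genes, and its median was 0.05.

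Antioxidant, autophagy and lysosomal genes held small rises. Of 46 antioxidant genes 12 rose (26.1%) and 1 fell (2.17%), against 5.77% and 4.34% of all genes (median 0.10). CAT, the catalase that breaks down hydrogen peroxide, read 10.59, 10.61 and 10.63 in treated arrays, against 9.84, 9.80 and 9.76 in untreated arrays, a difference of 0.81 ± 0.06 (adjusted p = 1.5e-07). GPX1, a glutathione peroxidase, rose by 0.59, and GPX8, its relative in the endoplasmic reticulum, fell by 0.39. WIPI1 and GABARAPL1, of the autophagosome, rose by 0.61 and 0.57, with 7 of 36 autophagy genes rising (19.4%) and 0 falling. MAN2B1, a lysosomal mannosidase, rose by 0.50. Another lysosomal gene, TPP1, rose by 0.46 at its brightest probe set and differed by 0.20, 0.26 and -0.13 at its others. MVP, the major vault protein, and ABCG2, a drug efflux pump, rose by 0.63 and 0.42. AKR1C1 and AKR1C2, near-identical reductases that can share probe signal, rose by 0.31 and 0.36.

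Other large groups were read against the shares over all genes, 5.77% higher and 4.34% lower. Of 74 oxidative phosphorylation subunits 3 rose and 2 fell, of 58 ribosomal proteins 4 rose and 1 fell, and of 30 ribosome biogenesis genes 0 rose and 1 fell. Those are 4.05% and 2.70% of the first group, 6.90% and 1.72% of the second, and 0% and 3.33% of the third. Of 38 glycolysis and hypoxia genes 4 rose, led by EPAS1 at 0.63, and 2 fell. Olfactory receptors, known mainly from sensory neurons of the nose, had 0 rises and 0 falls among 82, with a median of -0.10.

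**Figure D3:**
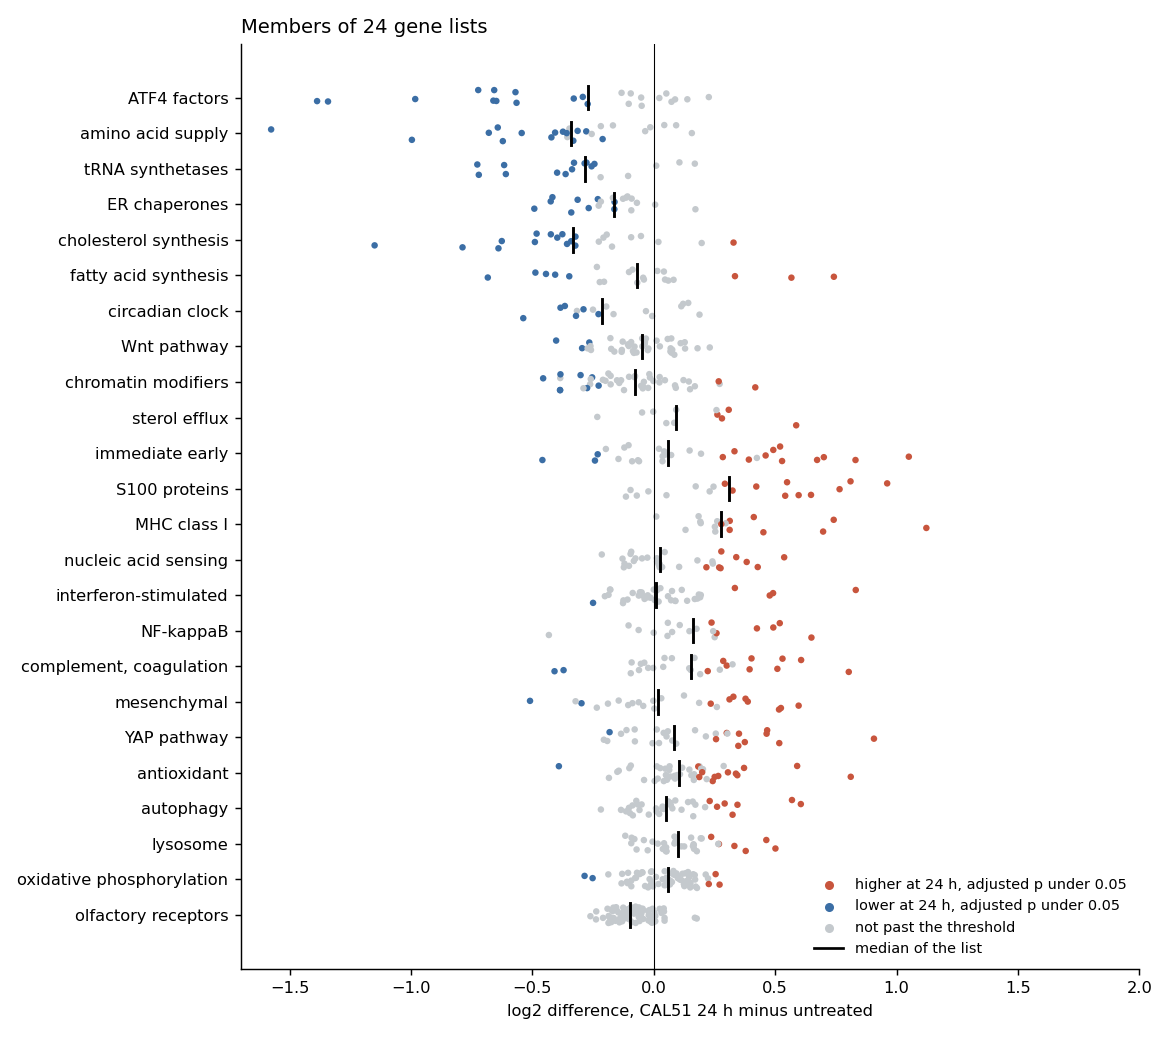
Each point is a measured gene of 1 of 24 lists, placed by its log2 difference (CAL51 24 h minus untreated). Colour marks an adjusted p under 0.05 and the black bar is the list's median. ATF4 factors, amino acid supply, tRNA synthetases and cholesterol synthesis have medians of -0.27, -0.34, -0.29 and -0.33, and S100 proteins and MHC class I genes 0.31 and 0.28.

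The same dose was also read at 48 h, and both times share the untreated arrays. Between 48 h and 24 h 1920 genes differed by the same test (9.71%). ATF4 was at 11.97, 11.90 and 11.97 at 48 h, 48 h minus 24 h being 0.44 ± 0.06 (adjusted p = 1.8e-04). ASNS was at 10.05, 10.03 and 10.07, a difference of 0.57 ± 0.07 (adjusted p = 1.1e-04), which still left it below the untreated arrays. NUPR1, a stress-induced chromatin protein that fell by 0.27 at 24 h, was at 9.33, 9.14 and 9.06 at 48 h, above its untreated values of 8.49, 8.54 and 8.57. HMGCS1 was at 9.66, 9.62 and 9.54 at 48 h, and its untreated values were 9.57, 9.57 and 9.52. Its 48 h minus 24 h difference was 0.54 ± 0.05 (adjusted p = 2.3e-05). Among the risers, KRT19 and XG were higher again at 48 h, by 0.80 ± 0.07 (adjusted p = 1.8e-05) and 0.92 ± 0.14 (adjusted p = 6.8e-04), whereas SPP1 and RASEF were lower at 48 h than at 24 h, with differences of -0.65 ± 0.09 (adjusted p = 3.3e-04) and -0.50 ± 0.08 (adjusted p = 8.1e-04).

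**Figure D4:**
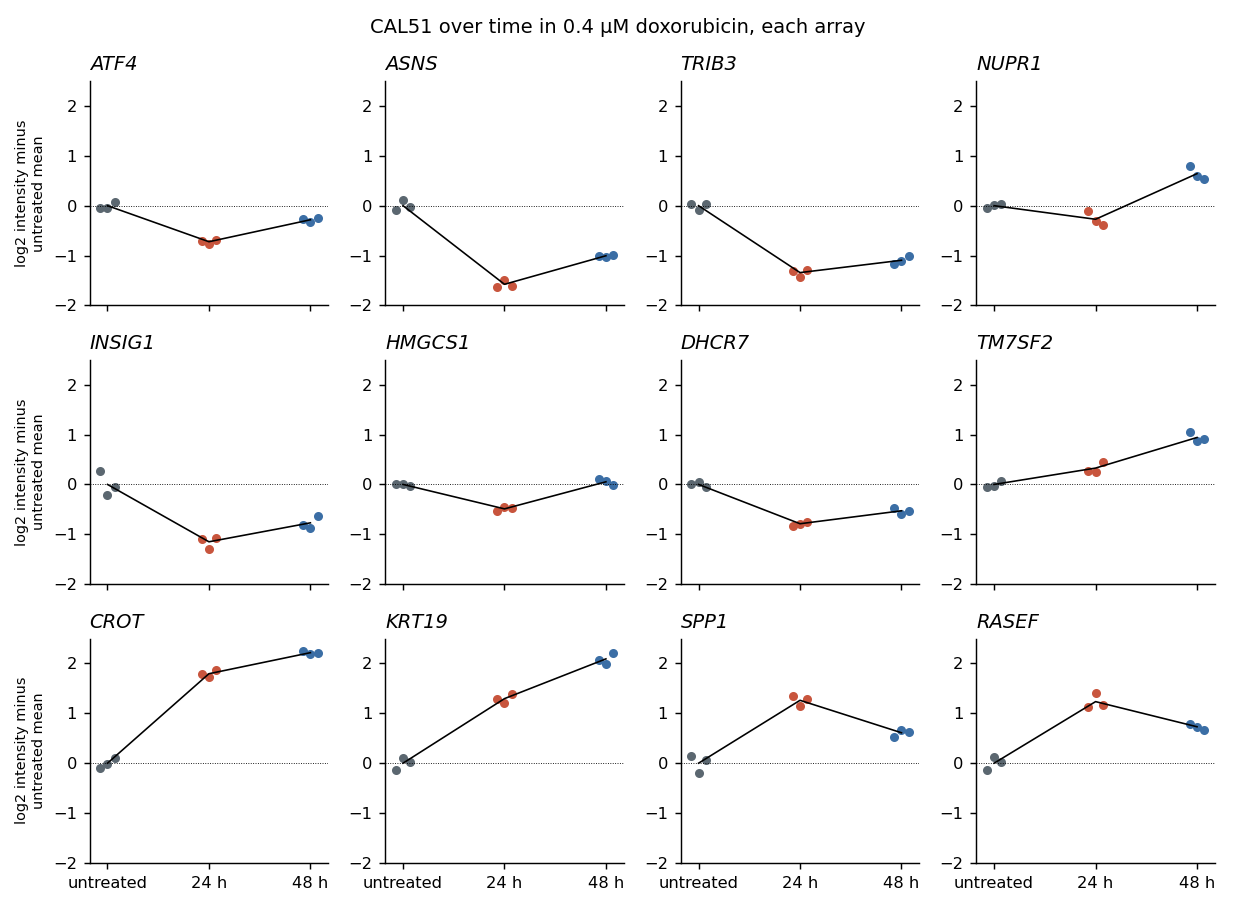
RMA log2 intensity minus the mean of the untreated arrays, for each array of CAL51 untreated, at 24 h and at 48 h in 0.4 µM doxorubicin, for 12 genes. The line joins the means. ASNS, TRIB3 and DHCR7 are lower at both times, HMGCS1 only at 24 h, and NUPR1 is below the untreated mean at 24 h and above it at 48 h.

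CALDOX gave the same readout after 24 h in 4 µM, a dose 10 times that of CAL51, so line and dose cannot be told apart. Untreated CALDOX averaged 11.97 for ATF4, 9.97 for ASNS, 9.36 for TRIB3 and 10.15 for INSIG1, against 12.23, 11.05, 10.73 and 9.77 in untreated CAL51. CROT and KRT19 averaged 11.05 and 11.35 in untreated CALDOX, against 8.78 and 6.59 in untreated CAL51. The part of these starting levels in the responses was not tested. The 24 h difference of CAL51 minus that of CALDOX passed the test for 283 genes (1.43%). ATF4 differed by -0.72 in CAL51 and by -0.02 in CALDOX, and the difference of these responses was -0.71 ± 0.08 (adjusted p = 2.5e-04). For ASNS the values were -1.58 and -0.22, and the difference of responses was -1.35 ± 0.09 (adjusted p = 5.3e-06). TRIB3 differed by -1.34 in CAL51 and -0.26 in CALDOX, with -1.09 ± 0.09 (adjusted p = 1.6e-05) for the difference. INSIG1 differed by -1.15 in CAL51 and -0.80 in CALDOX, and that difference, -0.35 ± 0.16 (adjusted p = 0.41), did not pass. Among the lists, 10 of 23 ATF4 factors, 10 of 24 amino acid supply genes, 6 of 18 S100 genes and 1 of 22 cholesterol genes had a difference of responses past the threshold.

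For some genes the answer depended on the probe set. Over all 41091 single-symbol probe sets 8.8% were called at 24 h, and 37 of the 10523 genes with several probe sets had 1 or more called higher and 1 or more called lower. That number was 16 and 22 without treated replicates 1 and 3, and 24, 20 and 18 without untreated replicates 1, 2 and 3. It was 85 with array spread as a covariate, 7 with only the 6 arrays and 251 with array weights. SDAD1, a factor of ribosome assembly, had a probe set at 5.99, 5.91 and 6.13 in treated arrays, against 6.61, 6.63 and 6.56 in untreated arrays, and a brighter one at 9.01, 8.97 and 9.15, against 8.48, 8.60 and 8.46. The first fell by 0.59 and the second rose by 0.53, with no overlap in either. MCL1, a survival protein of the BCL2 family, had a probe set that rose by 0.44 and a dimmer one that fell by 0.46, and its brightest differed by 0.11 without passing. RPAIN, ANKRD11, SFPQ and AHNAK showed opposite calls of 0.69 and -0.52, 0.43 and -0.46, 0.43 and -0.45, and 0.42 and -0.39. SRSF4, a splicing factor, fell by 0.35 at its brightest probe set and rose by 0.73 at another. Which transcripts these probe sets read was not analysed here.

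**Figure D5:**
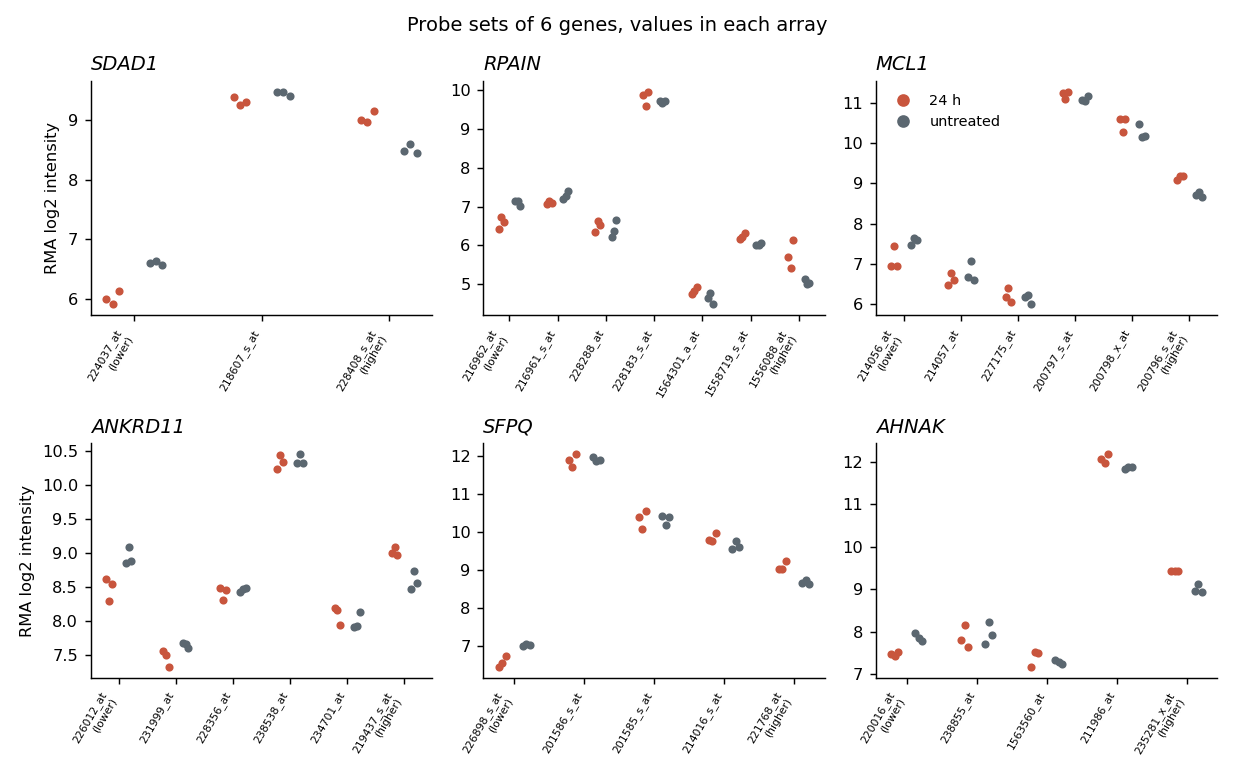
RMA log2 intensity of every single-symbol probe set of SDAD1, RPAIN, MCL1, ANKRD11, SFPQ and AHNAK in each array, 24 h cultures to the left of untreated cultures, with probe sets ordered by their difference. The lowest-ordered probe set of each gene was called lower and the last was called higher. The brightest probe set was not called for any of the 6 genes.

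Probe sets with no gene symbol, 11721 in all, were not described further, and 6.99% of them were called at 24 h in a fit of all probe sets together.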

How the data were processed

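The deposited table holds, per the submitters' processing notes, RMA values of 54675 Affymetrix probe sets in 15 arrays of biotin-labelled cRNA. The deposited values run between 3.083 and 14.76 and were read as log2 intensity, a base that the labels do not name. RMA corrects background, quantile normalizes and summarizes probes, and the labels give no version of it. Depth has no meaning for arrays, and 3 arrays a group limit the precision. Background left in dim probe sets understates changes.

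The platform annotation gave 41097 probe sets 1 symbol, 1801 several and 11777 none. The 62 controls were left out. Each of 19775 genes took its brightest probe set over all arrays. A group-mean model over the 15 arrays was fitted by limma 3.58.1 under R 4.3.3 (10 residual and 5.397 prior degrees of freedom), with Benjamini-Hochberg adjustment over all 19775 genes of a contrast, and tests were two-sided. The fit was tested on simulated data.

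The 76 gene lists and families, and the members, were chosen with earlier results of these data known. Genes named were the 15 highest and 15 lowest called without overlap outside the p53, cell-cycle and histone lists, up to 3 called members of each list with the largest change (or its largest where none was called), every measured cholesterol and ATF4 gene, and the 6 genes with the clearest opposite probe sets. Others were named after their values were seen, mainly the remaining called members of short lists. Promoters are RefSeq's, GRCh38.p14, matched by gene ID for 15382 genes. Alternatives are given in the closing section.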

Additional observations from a re-analysis of the deposited data

Results flagged for a closer look

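Among 70 genes examined (the 30 highest and lowest and the cholesterol and ATF4 genes), the 24 h response of CAL51 minus that of CALDOX passed limma's adjusted p for 25, 16 below 0 and 9 above. The doses were 0.4 µM in CAL51 and 4 µM in CALDOX, so line and dose cannot be told apart. The differences below 0 were -1.35 for ASNS, -1.16 for INHBE, -1.09 for TRIB3, -0.93 for NUPR1, -0.86 for CHAC1, -0.82 for PCK2, -0.71 for DDIT3, -0.71 for ATF4, -0.68 for GRB10, -0.63 for CEBPB, -0.52 for CEBPG, -0.49 for NTS, -0.48 for AARS1, -0.46 for JDP2, -0.38 for EIF4EBP1 and -0.37 for DHCR7. Those above 0 were 1.17 for XG, 1.07 for RASEF, 0.97 for TUBA1A, 0.83 for KRT19, 0.81 for CROT, 0.69 for SPP1, 0.68 for CYFIP2, 0.57 for TAP1 and 0.53 for LOC100190986.

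For 30 of the same 70 genes the 48 h and 24 h arrays of CAL51 differed, 25 being higher at 48 h and 5 lower. The lower ones were LOC100190986 (-0.72), SPP1 (-0.65), RASEF (-0.50), F2RL2 (-0.47) and EIF2AK2 (-0.26). Higher at 48 h were XG (0.92), NUPR1 (0.91), KRT19 (0.80), NTS (0.63), TM7SF2 (0.61), STARD4 (0.61), DDIT4 (0.59), ASNS (0.57), HMGCS1 (0.54), EPPK1 (0.45), MSMO1 (0.44), ATF4 (0.44), CROT (0.42), PPP1R15A (0.39), TUBA1A (0.39), PCK2 (0.39), INSIG1 (0.38), TRIB1 (0.33), TAP1 (0.32), IDI1 (0.29), PHGDH (0.28), DHCR7 (0.26), AARS1 (0.25), TRIB3 (0.25) and EIF4EBP1 (0.20). DDIT4, STARD4 and PPP1R15A had not passed the test at 24 h.

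Outside the named genes, 819 of 11721 probe sets with no gene symbol changed at 24 h, 689 higher and 130 lower, with differences reaching 1.95 and -0.88.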

How the results depend on the processing

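The 24 h calls, list medians and named genes were recomputed under 10 kinds of alternative, and the opposite probe sets under those that keep every probe set. The comparison of 48 h with 24 h and that of CAL51 with CALDOX were not recomputed. The fit to only the 6 arrays compared gave 870 changed genes, 600 higher and 270 lower, of which 855 were also called by the fit to 15 arrays, and 63 of 223 called named genes lost their call. Array weights gave 3200 changed genes with 1558 lower (their estimate stopped before convergence), and array spread as a covariate gave 3099 with 1646 lower. Leaving out 1 array gave 507 to 861 lower genes, 507 without treated replicate 1 and 571 without untreated replicate 1. Opposite probe sets numbered 37 genes, 85 with the spread covariate, 7 with 6 arrays, 251 with weights and 16 to 44 with 1 array left out: 16 and 22 without treated replicates 1 and 3, and 24, 20 and 18 without untreated replicates 1, 2 and 3. The median of tRNA synthetases was -0.226 over the mean of all probe sets and -0.325 to -0.275 with 1 array left out, that of clock genes -0.066 with plain probe sets (IDs ending in _at alone), and that of S100 genes 0.549 above the median level.

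With plain probe sets the sign turned for AGMAT (-0.169), ATP6V1H (-0.0129), B2M (-0.0352), CLK4 (-0.157), FARSB (0.0438), ITGB3 (-0.0919), MCL1 (-0.455), MYLIP (-0.0737), RPAIN (-0.519), SFPQ (0.427), TPP1 (-0.134), YARS1 (0.0567) and ZNF44 (-0.0248), and with the mean of probe sets for SRSF4 (0.326). Of the 30 highest and lowest genes, ASNS and CXCL5 lost their call, only with plain probe sets. Deviations of same-numbered treated and untreated arrays correlated at 0.226, 0.375 and -0.128, and those of differently numbered arrays at -0.457 to 0.411. With 3 arrays a group these values cannot decide whether replicate numbers pair the arrays. With a replicate block 1051 genes rose and 736 fell, and 4 of 223 called named genes lost their call.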
